A study of Rattus norvegicus with 6 samples.

Results

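The nuclear genes that encode the subunits of the mitochondrial respiratory chain and of the ATP synthase, with their complex I assembly factors, were examined in rat beta cells after 24 h of fasting. A gene was included if a probe set carried its symbol alone and the symbol began with Nduf followed by a, b, c, s or v, with Uqcr, with Cox and a figure from 4 to 8, or with Atp5, or was Sdha, Sdhb, Sdhc, Sdhd, Cyc1 or Cycs. This gave 87 genes on 97 probe sets, of 14217 genes with a probe set of their own. The 9 genes with more than 1 probe set were represented by the brightest. By complex, 36 genes encoded subunits of complex I, 6 encoded its assembly factors, 4 belonged to complex II, 8 to complex III, 17 to complex IV and 16 to complex V. Another 7 genes of the chain (Atp5mc1, Atp5mc2, Cox7a2, Cycs, Ndufa10, Ndufs5 and Uqcrb) shared their probe sets with other symbols and were not used here, so that cytochrome c itself was not analysed.

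The respiratory chain passes electrons from NADH (complex I) and succinate (complex II) through ubiquinone, complex III and cytochrome c to oxygen at complex IV, and complexes I, III and IV pump protons across the inner mitochondrial membrane. Complex V, the ATP synthase, lets the protons back and makes ATP. In beta cells the ATP made from glucose closes ATP-sensitive potassium channels and so triggers insulin release, which makes this machinery part of the glucose sensor.

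The fasted isolates were beta cells purified by FACS from male Wistar rats, 10 weeks old, after a 24 h fast, and the fed isolates were the same cells from rats of the same sex, strain and age with free access to food. Each group had 3 isolates, each hybridised to 1 array, and each isolate pooled the cells of 5 rats, so that the spread between single animals was not measured. The fasted isolates were compared with the fed ones to ask how a short fast alters beta cell transcripts. Values are linear intensities, which are proportional to signal and have no unit. Because each probe set binds with its own strength, levels were compared between groups and not between genes, and in pooled cells a smaller number of expressing cells and less transcript per cell cannot be told apart.

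The arrays differed in overall signal. The median intensity was 17.1, 17.8 and 21.0 on the fasted arrays, against 21.1, 21.8 and 20.2 on the fed arrays, and the median log2 change over all 31042 probe sets was -0.20 (fasted over fed). The 3' over 5' ratio of beta-actin, which rises as RNA is degraded, was 1.82 to 2.4 on the fasted arrays and 1.76 to 2.05 on the fed arrays, with fasted replicate 1 at 2.4. The beta cell label was checked on Ins1 and Ins2, with mean intensities of 6031 and 5898 in fasted and 5959 and 5784 in fed cells, and 0 of 7 measured beta cell markers were called. Acinar transcripts were also abundant, with sums over 10 markers of 48088 to 54665 on fasted and 51505 to 55481 on fed arrays, and 0 of 10 were called. Ins1, Ins2, Iapp and the acinar markers other than Cela1 and Cuzd1 stood close to the highest intensity on any array, 7629, where the signal may be saturated, so their like values do not show like cell content. Of the dimmer markers, Mafa averaged 815.1 ± 137 in fasted and 1024 ± 77.4 in fed cells (SD, n = 3 each, log2 change -0.34, adjusted p = 0.321 by limma), and the acinar Cuzd1 averaged 586 ± 113 in fasted and 706 ± 336 in fed cells (log2 change -0.16, adjusted p = 0.848). The alpha cell marker sum over 3 genes was 5051 to 5834 on fasted and 3561 to 7770 on fed arrays. Of the 3 duct markers measured, Krt19 was higher in fasted cells (log2 change 0.70, adjusted p = 0.192), and the marker sum was 411 to 495 on fasted and 318 to 384 on fed arrays. The part of duct, alpha and PP cells in the results below was not tested.

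Most respiratory chain genes gave slightly lower signal on the fasted arrays, as did most probe sets of any kind, and few moved by much. The log2 change (fasted over fed) was negative for 76 of 87 genes as deposited, with a median of -0.18, which was -0.06 when the arrays were quantile normalized and 0.05 when each was scaled to a common 75th percentile. The quartiles were -0.32 and -0.09 and the range -0.91 to 1.43. The median lay 0.02 above that of all probe sets, of which 65.4% were negative. A gene was called lower or higher where it changed at least 1.5-fold at an unadjusted p under 0.05 by limma. By this rule 4 genes were lower (Ndufs8, Ndufs3, Ndufs1 and Ndufa4), or 4.6% against 8.43% of all probe sets, and 2 were higher (Ndufa7 and Cox7a2l), or 2.3% against 2.37%. Neither share exceeded that of the array as a whole. No gene passed an adjusted p under 0.05 by limma (0 of 31042 probe sets, of which 4622 had an unadjusted p under 0.05), and the smallest adjusted p was 0.155.

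**Figure D1:**
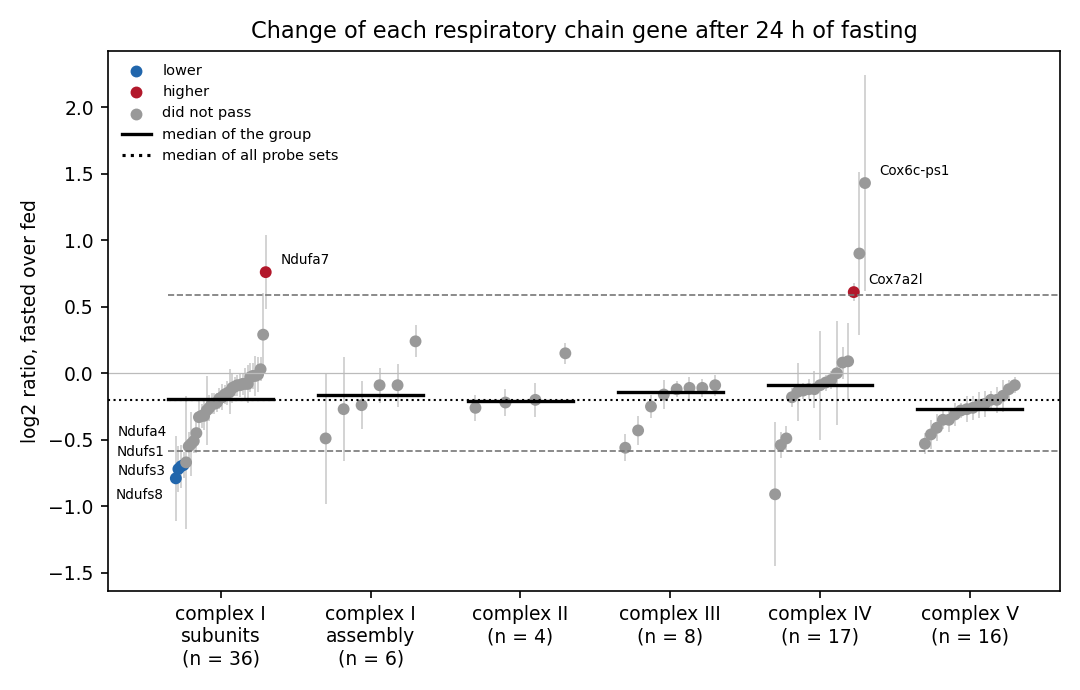
Log2 ratio of fasted over fed intensity (y axis) for each of the 87 genes (points, ordered within each complex, bars are the SE). Solid lines give the median of each complex, the dotted line the median of all probe sets (-0.20) and dashed lines the 1.5-fold thresholds. The 4 genes called lower are all plotted in complex I (11.1% of its 36 subunits, against 8.43% of all probe sets). Among them Ndufa4 was later found in complex IV, and without it complex I has 3 of 35 (8.57%). All 16 complex V genes lie below 0 as deposited (14 and 9 under the 2 rescalings), and the widest bar belongs to Cox6c-ps1, with an SE of 0.81.

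Small differences without a fold threshold were more frequent. At an unadjusted p under 0.05, 32 of the 87 genes (36.8%) were lower and 2 were higher, against 11.6% and 3.25% of all probe sets. Among the 73 genes with a mean intensity of at least 100, 31 (42.5%) were lower, against 23.0% of the 5667 probe sets above the same cut. The median SE was 0.1 for these 73 genes and 0.15 for those 5667 probe sets. A smaller SE lets a smaller change reach this p, and its part in the counts was not tested. In 41 genes (47.1%) every fasted array lay below every fed array, and in 3 every fasted array lay above, against 17.6% and 5.24% of all probe sets. Among the same 73 genes the fasted arrays lay wholly below in 40 (54.8%), against 30.1% of those 5667 probe sets. With 3 arrays a group, an exact permutation test of one gene cannot go below 0.1. The counts depended on the fit and on how the arrays were scaled. Without the intensity trend of the limma fit, 13 of the 87 genes were lower at an unadjusted p under 0.05, against 10.7% of all probe sets. Under quantile normalization 15 genes (17.2%, against 7.33% of all probe sets) were lower at this p and 4 (4.6%, against 6.25%) higher. Under 75th percentile scaling 4 (4.6%, against 6.1%) were lower and 4 (4.6%, against 7.1%) higher. The 4 genes still lower were Ndufa4, Ndufb3, Ndufs1 and Ndufs3, and the 4 higher were Cox7a2l, Ndufa7, Ndufaf8 and Sdhd.

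Complex I is built around core subunits that bind FMN and the iron-sulfur clusters and carry electrons from NADH to ubiquinone. The core subunits described here were 6 (Ndufv1, Ndufv2, Ndufs1, Ndufs3, Ndufs7 and Ndufs8). These 6 showed the largest median change among the groups of subunits compared, -0.62, or -0.41 relative to the median of all probe sets. It was -0.45 under quantile normalization (-0.42 in relative terms) and -0.37 under 75th percentile scaling (-0.38), but -0.34 (-0.22) without fasted replicate 1. The 3 core subunits called (Ndufs1, Ndufs3 and Ndufs8) did not reach 1.5-fold under either rescaling, and Ndufs1 and Ndufs3 stayed lower there at an unadjusted p under 0.05.

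Ndufs1, the largest subunit of the electron-input arm and carrier of several iron-sulfur clusters, had intensities of 156.51, 213.77 and 227.05 in fasted cells, against 331.78, 287.15 and 341.05 in fed cells. All fasted values lay below all fed values. The log2 change was -0.70 (SE 0.16, adjusted p = 0.213 by limma). Ndufs3, a core subunit of the module that hands electrons to ubiquinone, had 80.22, 96.13 and 119.47 in fasted cells, against 165.39, 143.75 and 173.75 in fed cells. Again the groups did not overlap, with a log2 change of -0.72 (SE 0.17, adjusted p = 0.217). Ndufs8, which holds a pair of iron-sulfur clusters near the ubiquinone site, had 36.87, 72.06 and 85.4 in fasted cells, against 100.35, 100.78 and 115.89 in fed cells. The fasted values were spread more widely than the fed ones, and the log2 change was -0.79 (SE 0.32, adjusted p = 0.333). Without fasted replicate 1 the log2 changes of Ndufs1, Ndufs3 and Ndufs8 were -0.53, -0.58 and -0.43 and none reached 1.5-fold, though each stayed lower at an unadjusted p under 0.05.

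The other 3 core subunits did not pass. Ndufv1, which binds NADH and FMN, had 115.04, 210.94 and 202.01 in fasted cells, against 247.12, 238.21 and 251.59 in fed cells (log2 change -0.53, adjusted p = 0.356). Its 3 fasted values lay below the fed ones, with replicate 1 lowest, as for Ndufs1, Ndufs3 and Ndufs8. Ndufv2, the partner of Ndufv1, had a log2 change of -0.26 (adjusted p = 0.33) and overlapping groups. Ndufs7, which carries the last iron-sulfur cluster before ubiquinone, had 214.94, 220.39 and 180.58 in fasted cells, against 211.91, 183.79 and 223.43 in fed cells, a log2 change of -0.01. The log2 changes of the 6 core subunits thus ran between -0.79 and -0.01.

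**Figure D2:**
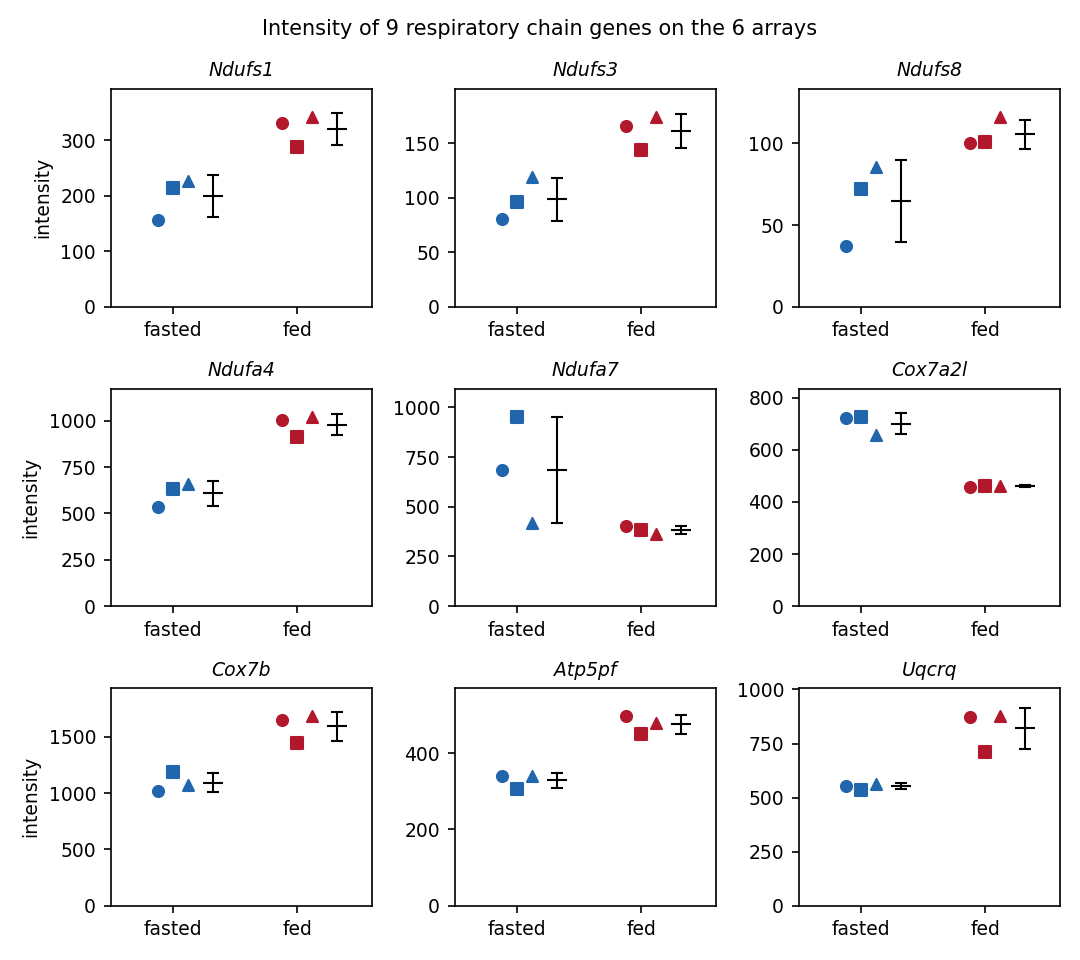
Intensity (linear, y axis from 0) of 9 genes on each array, fasted on the left in blue and fed on the right in red. Circles, squares and triangles are replicates 1, 2 and 3, and the black bars are the mean ± SD of 3 arrays. Shown are the genes called and, from each of complexes III, IV and V, the uncalled gene with the smallest p. Genes so chosen tend not to overlap, and the groups do not overlap in any of the 9 panels. Of all 87 genes, 47.1% lay wholly below on the fasted arrays and 3.45% wholly above, against 17.6% and 5.24% of all probe sets. In Ndufs8 and Ndufa7 the fasted arrays are spread far more widely than the fed ones.

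Among the 30 accessory subunits of complex I, which surround the core and stabilise it, 1 was called lower and 1 higher (3.33% each, against 8.43% and 2.37% of all probe sets), and 10 (33.3%, against 11.6%) were lower at an unadjusted p under 0.05. As deposited 27 of 30 had a negative log2 change with a median of -0.16, which was -0.02 under quantile normalization and 0.09 under 75th percentile scaling. Ndufa4 had the smallest p of the lower genes. Its intensities were 533.7, 629.28 and 661.16 in fasted cells, against 1002.16, 914.77 and 1020.75 in fed cells. No fasted value came near the fed ones, and the log2 change was -0.69 (SE 0.10, adjusted p = 0.157 by limma). Ndufa4 was first assigned to complex I and later found in complex IV. Counted there, it left 3 genes lower among 35 in complex I (8.57%) and 1 lower among 18 in complex IV (5.56%). Its log2 change was -0.57 under quantile normalization and -0.45 under 75th percentile scaling, in both cases under 1.5-fold and at an unadjusted p under 0.05. It was called in every fit that left out a single array.

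Ndufb3 and Ndufa2, both small accessory subunits, came close to the 1.5-fold threshold. Ndufb3 averaged 369.8 ± 26.5 in fasted and 541.8 ± 55.0 in fed cells (SD, n = 3 each), a log2 change of -0.55 (adjusted p = 0.177 by limma). Ndufa2, a subunit of the electron-input arm with a thioredoxin-like fold, averaged 297.5 ± 4.94 in fasted and 426.0 ± 40.6 in fed cells, a log2 change of -0.51 (adjusted p = 0.176). Both had fasted values wholly below the fed ones. Ndufa1, needed for assembly of the membrane arm, averaged 830.8 ± 69.0 in fasted and 1039 ± 73.9 in fed cells, a log2 change of -0.32 (adjusted p = 0.263). In Ndufb8, a membrane-arm subunit, fasted replicate 1 was lowest and replicate 3 also lay below the fed range (22.6, 91.59 and 65.96 in fasted, against 80.77, 81.3 and 84.54 in fed cells), and the groups overlapped (adjusted p = 0.52). Ndufa4l2, a paralogue of Ndufa4 known as a hypoxia-induced gene, averaged 22.94 ± 2.74 in fasted and 27.89 ± 4.37 in fed cells, a log2 change of -0.28 (adjusted p = 0.593).

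Ndufa7, another accessory subunit of the electron-input arm, was called higher. It had 687.05, 951.78 and 419.54 in fasted cells, against 405.04, 380.69 and 363.57 in fed cells. The fed values were tight and the fasted ones widely spread, with replicate 3 only just above the highest fed value. The log2 change was 0.76 (SE 0.28, adjusted p = 0.309 by limma). A dimmer probe set of the same gene had 29.86, 46.15 and 57.5 in fasted cells, against 63.04, 50.68 and 46.64 in fed cells, a log2 change of -0.30 (adjusted p = 0.595). The probe sets of Ndufa7 therefore disagreed in sign, and their mean was not called. The call was also lost without each single array except fasted replicate 3.

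The 6 assembly factors of complex I, which are not part of the finished enzyme, were not called in either direction. As deposited 5 of 6 were negative with a median of -0.16, which was 0.04 under quantile normalization. Ndufaf8 averaged 202.3 ± 23.3 in fasted and 170.2 ± 8.46 in fed cells (log2 change 0.24, adjusted p = 0.372 by limma). Ndufaf5, known in human cells to hydroxylate an arginine of Ndufs7, averaged 48.91 ± 3.84 in fasted and 57.98 ± 9.29 in fed cells (log2 change -0.24, adjusted p = 0.537). Ndufaf1 lay below the floor set for dim values on at least 1 array, so its log2 change of -0.49 (adjusted p = 0.617) carries little information.

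Complex II, which is also the succinate dehydrogenase of the citric acid cycle, had a median of -0.21 over 4 genes as deposited, -0.09 under quantile normalization and 0.03 under 75th percentile scaling, and no call. Only Sdhc was lower at an unadjusted p under 0.05. Sdhc, a membrane anchor, had 481.25, 599.27 and 573.08 in fasted cells, against 669.05, 660.25 and 641.07 in fed cells (log2 change -0.26, adjusted p = 0.317 by limma). Sdhb, the iron-sulfur subunit, averaged 343.3 ± 32.6 in fasted and 399.3 ± 22.7 in fed cells (log2 change -0.22, adjusted p = 0.359). Sdha, the flavoprotein, averaged 219.4 ± 28.5 in fasted and 251.8 ± 20.8 in fed cells (log2 change -0.20, adjusted p = 0.46), and its groups overlapped. Sdhd, the other membrane anchor, had the opposite sign. It had 462.72, 504.28 and 448.31 in fasted cells, against 423.89, 417.48 and 428.32 in fed cells, with every fasted value above every fed one and a log2 change of 0.15 (adjusted p = 0.384). Its dimmer probe set had a log2 change of -0.12 (adjusted p = 0.686).

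Complex III, the cytochrome bc1 complex, had no call, and as deposited 8 of 8 changes were negative with a median of -0.14, which was -0.02 under quantile normalization and 0.11 under 75th percentile scaling. At an unadjusted p under 0.05, 3 were lower (37.5%, against 11.6% of all probe sets and 23.0% of those with a mean of at least 100). These were Uqcrq, Uqcr11 and Uqcr10, of which the first and second kept this under quantile normalization. The 3 genes with the largest log2 changes encode small subunits, and Uqcrh, another small subunit, had the change closest to 0, -0.09 (adjusted p = 0.559). Uqcrq, a small subunit bound close to cytochrome b, had 554.86, 536.96 and 564.81 in fasted cells, against 874.36, 711.21 and 875.53 in fed cells. All fasted values lay in a narrow band below the fed ones, with a log2 change of -0.56 (SE 0.10, adjusted p = 0.176 by limma). Uqcr11 averaged 543.1 ± 30.6 in fasted and 733.2 ± 96.6 in fed cells (log2 change -0.43, adjusted p = 0.23), and Uqcr10 averaged 668.4 ± 33.4 in fasted and 796.5 ± 65.3 in fed cells (log2 change -0.25, adjusted p = 0.292). The redox and core subunits lay between these. Cyc1, the cytochrome c1 subunit, had a log2 change of -0.16 (adjusted p = 0.513), Uqcrfs1, the Rieske iron-sulfur protein, -0.12 (adjusted p = 0.4), and Uqcrc1, a core protein, -0.11 (adjusted p = 0.506).

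Complex IV, cytochrome c oxidase, had the least negative median of the 5 complexes, -0.09 over 17 genes as deposited, which was 0.07 under quantile normalization and 0.12 under 75th percentile scaling. Its core is encoded in mitochondrial DNA, and the nuclear subunits around it come in widespread forms and in forms typical of other tissues. Without the tissue-specific forms and a pseudogene, 9 of the 10 remaining genes were negative as deposited (3 of 10 under quantile normalization) and the median was -0.13 (0.02). At an unadjusted p under 0.05, 3 of the 17 were lower (Cox7b, Cox5b and Cox6a1) and 1 higher. These were 17.6% and 5.88%, against 11.6% and 3.25% of all probe sets. Cox7b had 1019.38, 1186.73 and 1070.66 in fasted cells, against 1652.93, 1444.44 and 1683.14 in fed cells (log2 change -0.54, SE 0.10, adjusted p = 0.176 by limma). Cox5b, the zinc-binding subunit, had 585.1, 680.04 and 643.57 in fasted cells, against 964.58, 825.76 and 897.2 in fed cells (log2 change -0.49, adjusted p = 0.176). In both genes the groups were clearly apart, though under 1.5-fold. Cox4i1, the largest nuclear subunit, averaged 928.8 ± 32.3 in fasted and 1012 ± 67.1 in fed cells (log2 change -0.12, adjusted p = 0.463), and its groups overlapped. Cox7c had a log2 change of -0.13 (adjusted p = 0.379), Cox6a1 of -0.18 (adjusted p = 0.331), Cox8a of -0.12 (adjusted p = 0.673) and Cox6b1 of -0.05 (adjusted p = 0.751).

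Cox7a2l was the one complex IV gene called, and it was higher. It encodes a subunit-like protein that joins complex III to complex IV in respiratory supercomplexes. It had 720.74, 726.15 and 655.34 in fasted cells, against 455.86, 462.56 and 462.14 in fed cells. The lowest fasted value stood well above the highest fed value, and the fed values were almost identical. The log2 change was 0.61 (SE 0.07, adjusted p = 0.155 by limma), and it was 0.74 under quantile normalization and 0.85 under 75th percentile scaling. Without fasted replicate 1 or without fasted replicate 2 it was 0.58, just under 1.5-fold, still at an unadjusted p under 0.05. Cox5a, the paired subunit of Cox5b, was read by a probe set with a mean of 42.98 ± 9.05 in fasted and 46.76 ± 4.91 in fed cells and overlapping groups (log2 change -0.14, adjusted p = 0.761), while a brighter probe set that it shares with another symbol was not used.

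The tissue-specific forms were read by dim probe sets. Of Cox4i2, Cox6a2, Cox6b2, Cox7a1, Cox7b2 and Cox8b, 0 were called, their median log2 change was 0.04 and the highest mean intensity was 26.6, against 20.2 for the median probe set. Cox4i2, the form of Cox4i1 found mainly in lung, had 5.13, 11.13 and 15.14 in fasted cells, against 11.14, 20.91 and 24.56 in fed cells (log2 change -0.91, adjusted p = 0.442). Cox6a2, the heart and muscle form of Cox6a1, averaged 27.78 ± 8.3 in fasted and 25.52 ± 2.3 in fed cells (log2 change 0.09, adjusted p = 0.898). Cox6b2, the testis form of Cox6b1, had a log2 change of -0.09 (adjusted p = 0.928) and Cox8b, a muscle form of Cox8a, of 0.08 (adjusted p = 0.742). The annotated pseudogene Cox6c-ps1 had the highest log2 change, 1.43 (adjusted p = 0.421), with 75.47, 29.77 and 8.76 in fasted cells, against 6.71, 11.33 and 13.26 in fed cells. The fasted values differed more among themselves than from the fed ones, and replicate 3 lay within the fed range.

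Complex V had no call. As deposited all 16 genes had a negative log2 change, between -0.53 and -0.09, with a median of -0.27, although 14 were negative under quantile normalization (median -0.13) and 9 under 75th percentile scaling (median -0.02). None reached 1.5-fold. At an unadjusted p under 0.05, 11 of 16 (68.8%) were lower, against 11.6% of all probe sets and 23.0% of those with a mean of at least 100. In 12 of 16 every fasted array lay below every fed array, against 17.6% and 30.1%. The median SE was 0.09 in complex V, against 0.35 for all probe sets and 0.15 for those with a mean of at least 100. The part of this smaller SE in the counts was not tested. Under quantile normalization 5 were lower at this p (Atp5f1b, Atp5me, Atp5mf, Atp5pd and Atp5pf), or 31.2% against 7.33% of all probe sets. Under 75th percentile scaling 0 were, against 6.1%. Relative to the median of all probe sets, the median of complex V was -0.07 as deposited and -0.11 under quantile normalization. It was -0.04 under 75th percentile scaling and -0.15 without fasted replicate 1.

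In the F1 head, which makes ATP, Atp5f1b (the catalytic beta subunit) had 861.51, 920.25 and 934.44 in fasted cells, against 1139.2, 1127.75 and 1192.9 in fed cells. Values within each group were close together and the groups were apart, with a log2 change of -0.35 (SE 0.07, adjusted p = 0.177 by limma). Atp5f1a, the alpha subunit, averaged 842.1 ± 97.1 in fasted and 1013 ± 18.5 in fed cells (log2 change -0.27, adjusted p = 0.294). The median of the 5 head subunits was -0.23. In the peripheral stalk, which keeps the head from turning, Atp5pf (coupling factor 6) had 339.7, 306.05 and 340.92 in fasted cells, against 496.3, 449.39 and 479.71 in fed cells. This was the largest change in the complex, at -0.53 (SE 0.08, adjusted p = 0.167). Atp5pd averaged 841.1 ± 0.8 in fasted and 1023 ± 24.3 in fed cells (log2 change -0.28, adjusted p = 0.199), and Atp5pb averaged 1196 ± 11.6 in fasted and 1274 ± 10.6 in fed cells (log2 change -0.09, adjusted p = 0.466). The stalk genes therefore ranged from the largest to the smallest change of complex V, around a median of -0.24.

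All 6 measured genes of the membrane part, which conducts the protons, were lower at an unadjusted p under 0.05 as deposited, with a median of -0.29. The share was 11.6% of all probe sets and 23.0% of those with a mean of at least 100. Under quantile normalization 2 of them (Atp5me and Atp5mf) were lower, or 33.3% against 7.33% of all probe sets. Under 75th percentile scaling 0 were lower, against 6.1%, and the median was -0.04. Atp5me, a small subunit of the dimer interface, had 136.09, 153.18 and 146.87 in fasted cells, against 223.47, 190.7 and 188.04 in fed cells (log2 change -0.46, SE 0.11, adjusted p = 0.216 by limma). Every fasted value lay below every fed value. Atp5if1, the inhibitor that stops the enzyme from hydrolysing ATP, was read by 3 probe sets. The brightest had 410.29, 353.23 and 366.17 in fasted cells, against 506.52, 456.55 and 473.82 in fed cells, a log2 change of -0.35 (adjusted p = 0.23). The next had 94.69, 101.31 and 92.53 in fasted cells, against 188.85, 161.46 and 154.1 in fed cells, a log2 change of -0.80 (SE 0.12, adjusted p = 0.155), and passed the 1.5-fold rule. The dimmest had a log2 change of -1.0 (adjusted p = 0.353). All 3 probe sets had every fasted array below every fed array, and they agreed in sign but not in size.

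**Figure D3:**
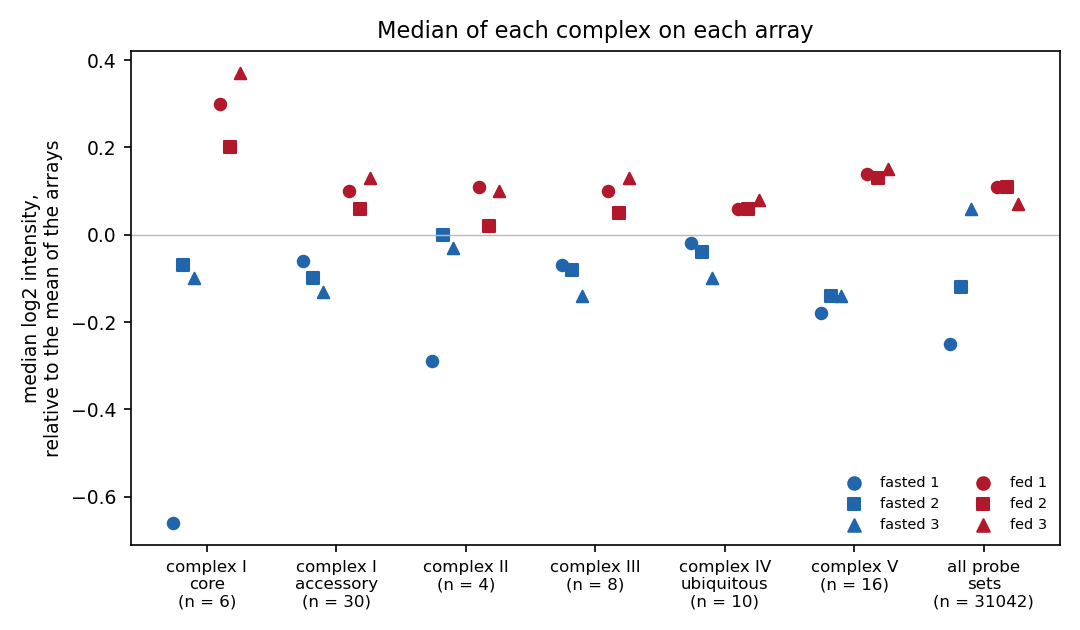
Median log2 intensity of each group of genes on each array (y axis), each gene taken relative to its mean over the 6 arrays. Fasted arrays (blue) stand left of fed arrays (red), and circles, squares and triangles are replicates 1, 2 and 3. Complex V separates with little spread as deposited (-0.18, -0.14 and -0.14 fasted, 0.14, 0.13 and 0.15 fed), the core subunits of complex I are lowest on fasted replicate 1 (-0.66), and the median of all probe sets is itself lowest on that array (-0.25).

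Taken by array, the complexes differed in how evenly the fasted isolates took part. The median of complex V was -0.18, -0.14 and -0.14 on the fasted arrays, against 0.14, 0.13 and 0.15 on the fed arrays (log2, each gene relative to its mean over the 6 arrays). For the core subunits of complex I it was -0.66, -0.07 and -0.10 on the fasted arrays, against 0.30, 0.20 and 0.37 on the fed arrays. Every fasted array was below every fed array for both, but this also held for complexes II, III and IV. It held for the median of all probe sets too (-0.25, -0.12 and 0.06 fasted, 0.11, 0.11 and 0.07 fed). The core subunits of complex I owed much of their low median to fasted replicate 1. On that array the 75th percentile of intensity was 53.8, against 60.9 and 69.5 on the other fasted arrays and 71.1 to 73.8 on the fed arrays, the beta-actin 3' over 5' ratio was 2.4 and that of GAPDH 1.22. The part of RNA quality and overall signal in these values was not tested. Complex II followed a like pattern, with -0.29, 0.00 and -0.03 on the fasted arrays, against 0.11, 0.02 and 0.10 on the fed arrays.

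**Figure D4:**
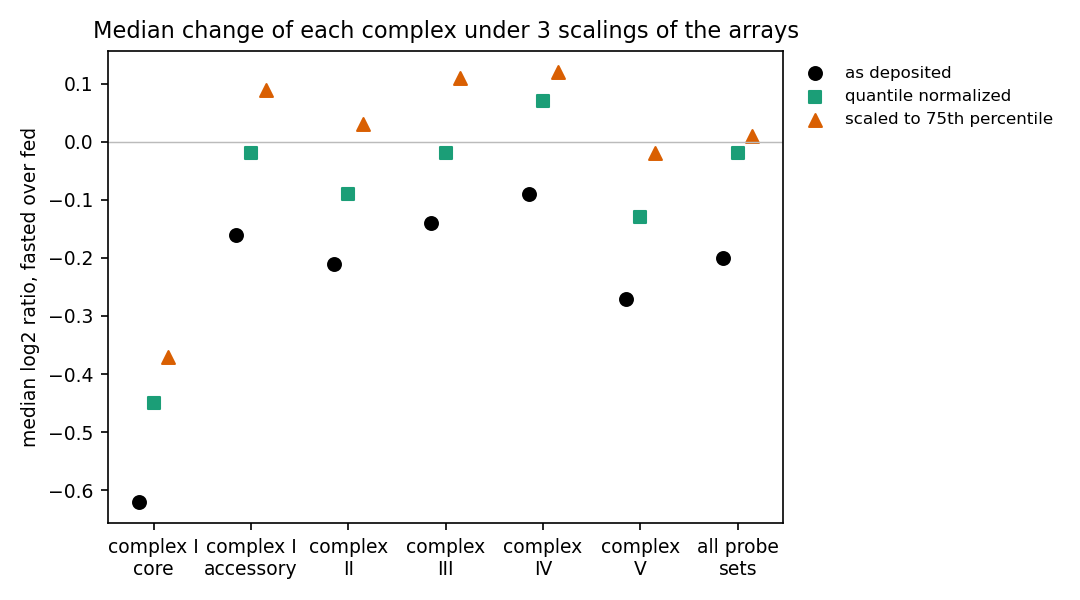
Median log2 ratio of fasted over fed (y axis) of each group of genes as deposited (black circles), quantile normalized (green squares) and with each array scaled to a common 75th percentile (orange triangles). The core subunits of complex I stay below 0 under all 3 scalings (-0.62, -0.45 and -0.37), complex IV turns positive under both rescalings (0.07 and 0.12), and all probe sets move from -0.20 to -0.02 and 0.01.

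The sign of the complex medians depended on scaling. Scaling to a common 75th percentile shifts all genes of an array above the floor by the same log2 amount. It therefore cannot test the order of the complexes. As deposited, the medians of complexes I to V were -0.19, -0.21, -0.14, -0.09 and -0.27. Under quantile normalization they were -0.06, -0.09, -0.02, 0.07 and -0.13, and under 75th percentile scaling 0.06, 0.03, 0.11, 0.12 and -0.02. Complex V had the lowest and complex IV the highest median under each of these 3 scalings. Complex IV was negative as deposited and positive under both rescalings, and complexes I, II and III were positive under the last. Without its tissue-specific forms and the pseudogene, complex IV stood at -0.13, 0.02 and 0.12 under the 3 scalings, close to complex III. With fasted replicate 1 also left out as deposited, it stood at -0.17, below complex II at -0.12. These differences between complexes were not tested, since subunits are not replicates.

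The promoters of 4 of the 6 genes called and of one complex V gene are shown because respiratory chain genes are known to share a few regulatory motifs. The window ran from 250 bases before to 50 bases after the annotated start, and RefSeq sequences (GRCr8) were at hand for 78 of the 87 genes. Searched on both strands were CGCNTGCGC (bound by NRF1), CCGGAAG (bound by ETS factors such as GABP), AANATGGCG (bound by YY1), AAGGTCA (bound by estrogen-related receptors) and TGACGTCA (bound by CREB). The NRF1 letters can match both strands at overlapping positions. Each sequence runs 5′ to 3′ on the gene's own strand, capitals mark the matches, and a match is no evidence of binding. Ndufs1 (chr9:72073556-72073855, minus strand) holds an ETS and a YY1 match, Ndufs8 (chr1:210573649-210573948, minus strand) an ETS match, Ndufa7 (chr7:15311196-15311495, plus strand) a YY1 match just after its start, Cox7a2l (chr6:16936324-16936623, plus strand) an NRF1 match, and Atp5me (chr14:1464610-1464909, plus strand) an NRF1 and an ETS match. The windows of the called genes Ndufs3 and Ndufa4 hold none of these letters.
Ndufs1: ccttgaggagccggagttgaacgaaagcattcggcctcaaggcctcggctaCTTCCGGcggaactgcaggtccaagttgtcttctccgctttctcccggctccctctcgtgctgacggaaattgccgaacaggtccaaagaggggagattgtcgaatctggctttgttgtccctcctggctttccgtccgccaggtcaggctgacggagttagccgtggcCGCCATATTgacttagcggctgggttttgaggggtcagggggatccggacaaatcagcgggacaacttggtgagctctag
Ndufs8: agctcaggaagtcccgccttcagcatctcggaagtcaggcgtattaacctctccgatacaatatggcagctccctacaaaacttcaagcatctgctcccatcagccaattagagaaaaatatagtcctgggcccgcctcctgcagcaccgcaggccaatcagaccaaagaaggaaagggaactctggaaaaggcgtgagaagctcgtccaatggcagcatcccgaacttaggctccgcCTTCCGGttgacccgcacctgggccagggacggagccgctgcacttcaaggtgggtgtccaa
Ndufa7: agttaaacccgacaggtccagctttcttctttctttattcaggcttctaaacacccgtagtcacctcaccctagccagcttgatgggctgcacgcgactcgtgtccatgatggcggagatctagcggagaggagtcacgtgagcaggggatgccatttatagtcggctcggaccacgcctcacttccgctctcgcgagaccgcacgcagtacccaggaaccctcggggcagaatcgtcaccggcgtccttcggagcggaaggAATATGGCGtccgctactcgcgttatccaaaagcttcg
Cox7a2l: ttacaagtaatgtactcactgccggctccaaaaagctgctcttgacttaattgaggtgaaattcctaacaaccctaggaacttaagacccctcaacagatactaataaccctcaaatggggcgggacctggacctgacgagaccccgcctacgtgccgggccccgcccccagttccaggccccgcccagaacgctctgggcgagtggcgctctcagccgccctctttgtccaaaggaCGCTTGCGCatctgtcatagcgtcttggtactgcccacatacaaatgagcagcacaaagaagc
Atp5me: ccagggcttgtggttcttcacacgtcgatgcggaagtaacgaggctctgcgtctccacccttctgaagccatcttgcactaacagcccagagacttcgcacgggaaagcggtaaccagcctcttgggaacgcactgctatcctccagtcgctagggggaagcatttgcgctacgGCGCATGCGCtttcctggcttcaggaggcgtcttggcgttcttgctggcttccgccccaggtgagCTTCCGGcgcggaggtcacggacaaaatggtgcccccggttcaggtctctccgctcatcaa

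Across the 78 promoters the NRF1 letters occurred in 19 (24.4%), against 6.26% of all 27457 promoters and 11.2% of the promoters of 11700 genes on the array. The ETS letters occurred in 22 (28.2%), against 9.22% and 15.1%, and the YY1 letters in 19 (24.4%), against 3.33% and 5.34%. The estrogen-related receptor letters occurred in 11 (14.1%, against 4.37% and 3.15%) and the CREB letters in 3 (3.85%, against 1.91% and 2.85%). At least one of the NRF1, ETS and YY1 motifs was present in 48 genes (61.5%), against 16.4% of all promoters and 27.0% of those on the array. The change on fasting is given by motif as a description. The median log2 change was -0.21 in the 48 genes with one of these 3 motifs and -0.15 in the others, and it was -0.20 with and -0.18 without an NRF1 match, -0.26 with and -0.16 without an ETS match, and -0.22 with and -0.18 without a YY1 match. It was -0.20 with and -0.19 without an estrogen-related receptor match, and -0.12 with and -0.20 without a CREB match, the only one of the 5 motifs with a median closer to 0 where it was present.

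Genes that build, regulate or feed the chain were listed beside its subunits. Of 41 measured factors for assembly and for copper or heme delivery, 5 (12.2%, against 8.43% of all probe sets) were lower and 0 higher as deposited. Under both rescalings 3 were lower (Bcs1l, Hccs and Lyrm7). These were 7.32%, against 4.85% of all probe sets under quantile normalization and 4.27% under 75th percentile scaling. The median was -0.31 as deposited, -0.11 under quantile normalization and -0.06 under 75th percentile scaling. Bcs1l, which inserts the Rieske protein into complex III, had 10.22, 10.07 and 12.21 in fasted cells, against 37.23, 24.29 and 29.27 in fed cells (log2 change -1.47, SE 0.31, adjusted p = 0.192 by limma). Lyrm7, which guards the Rieske protein before Bcs1l acts, was below the floor for dim values on 1 fasted array, with 1.0, 6.16 and 5.65 in fasted cells, against 13.29, 11.08 and 13.44 in fed cells (log2 change -1.37, adjusted p = 0.22). Their client Uqcrfs1, described above, had a log2 change of -0.12. Ecsit, an assembly factor of complex I, averaged 40.67 ± 11.3 in fasted and 70.52 ± 11.5 in fed cells (log2 change -0.82, adjusted p = 0.272). Hccs, which attaches heme to cytochromes c and c1, had a log2 change of -1.15 (adjusted p = 0.321) with overlapping groups, and Cox10, which makes heme for complex IV, of -0.69 (adjusted p = 0.313), and neither was called without fasted replicate 1. Surf1, an assembly factor of complex IV, averaged 432.9 ± 16.9 in fasted and 372.9 ± 22.2 in fed cells (log2 change 0.22, adjusted p = 0.311).

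Of 13 regulators of respiratory genes, 1 (7.69%, against 8.43% of all probe sets) was called lower as deposited. The same gene was called lower under both rescalings, against 4.85% of all probe sets under quantile normalization and 4.27% under 75th percentile scaling. Their median was -0.43 as deposited, -0.20 under quantile normalization, -0.19 under 75th percentile scaling and -0.16 without fasted replicate 1. The one called was Pprc1, a coactivator related to PGC-1alpha, with 29.18, 38.14 and 41.07 in fasted cells, against 85.4, 54.51 and 69.83 in fed cells (log2 change -0.94, SE 0.24, adjusted p = 0.225 by limma). Ppargc1a, PGC-1alpha itself, had 27.46, 150.61 and 116.93 in fasted cells, against 148.84, 142.67 and 152.98 in fed cells. Fasted replicate 1 stood far below the rest and replicate 2 lay within the fed range, so that the log2 change of -0.92 did not pass (adjusted p = 0.484). Lrpprc, which stabilises mitochondrial mRNAs, averaged 135.4 ± 12.9 in fasted and 171.2 ± 15.1 in fed cells (log2 change -0.34, adjusted p = 0.294). Tfam, which packages and transcribes mitochondrial DNA, had a log2 change of 0.07 (adjusted p = 0.771), Nrf1 of -0.32 (adjusted p = 0.519), Gabpa of -0.26 (adjusted p = 0.636) and Yy1 of 0.11 (adjusted p = 0.628). Esrra, an estrogen-related receptor, had 27.85, 24.7 and 17.29 in fasted cells, against 13.26, 6.7 and 16.09 in fed cells (log2 change 1.02, adjusted p = 0.349), with all fasted values above the fed ones, and was called higher under both rescalings.

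Among 21 genes of other electron donors, ubiquinone synthesis and proton leak, 2 were lower (Coq8a and Coq9, with log2 changes of -0.72 and -0.63) and 2 higher (Dhodh and Coq2, with 1.52 and 1.02). These were 9.52% each, against 8.43% of all probe sets lower and 2.37% higher. Their median was -0.22 as deposited and 0.03 under 75th percentile scaling. There 0 were lower, against 4.27% of all probe sets, and the same 2 higher (9.52%, against 4.59%). Without fasted replicate 1 only Coq9 was called, as lower (4.76%, against 5.44% of all probe sets lower and 1.74% higher). Coq2, Coq8a and Coq9 all serve ubiquinone synthesis and did not move in one direction. Dhodh, which passes electrons from pyrimidine synthesis to ubiquinone, had 90.5, 30.82 and 18.12 in fasted cells, against 17.29, 10.71 and 11.6 in fed cells. Its fasted values were widely spread, with replicate 1 highest, and replicate 3 was barely above the highest fed value (adjusted p = 0.333 by limma). Gpd2, the mitochondrial glycerol phosphate dehydrogenase of the beta cell NADH shuttle, had a log2 change of -0.31 (adjusted p = 0.493) and Ucp2, an inner membrane carrier of the uncoupling protein family, of -0.35 (adjusted p = 0.437). Of the subunits encoded in mitochondrial DNA, 2 were measured under a symbol of their own. COX1 averaged 6800 ± 115 in fasted and 6663 ± 154 in fed cells (log2 change 0.03, adjusted p = 0.822), and COX2 averaged 6972 ± 105 in fasted and 6991 ± 164 in fed cells (adjusted p = 0.989). Both stood close to the highest intensity, 7629, so that a difference could be hidden by saturation.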

How the data were processed

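RNA of 3 fasted and 3 fed beta cell isolates was hybridised to Affymetrix rat arrays. Before they deposited the table, the authors ran dChip's model-based analysis, with normalization to the array of median brightness and a correction for mismatch signal. No source used here gives the dChip version or detection calls. The deposited values are linear intensities of 31042 probe sets and 57 controls. Of these, 20826 probe sets had 1 symbol in the platform annotation, 436 several and 9780 none, and only the first were named. All 87 genes matched the GRCr8 gene table by gene number.

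Here, a floor was set at the 10th percentile (3.27), and the log2 scale was used for a linear model in limma 3.58.1 under R 4.3.3 (lmFit, eBayes with intensity trend, two-sided, fasted minus fed, no block, Benjamini-Hochberg over 31042 probe sets). Controls were left out. The thresholds, 1.5-fold and unadjusted p of 0.05, are those of the study. Means and SDs are of linear intensities. Depth has no counterpart on arrays, and 3 arrays a group limit the precision. A rule named 43 genes. These were the genes called, the 3 with the largest moderated t in each complex, a list of redox and catalytic subunits, tissue isoform pairs, genes whose probe sets disagreed, and the brightest and dimmest of each complex. Other genes were named after their values were seen. The genes and lists were chosen with earlier results of these data known. The fit was tested on simulated data.

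The alternatives were quantile normalization, scaling to the 75th percentile, a higher floor (25th percentile, 7.53), a pseudocount, leaving out dim probe sets, linear means with unequal variances, robust variances, no intensity trend, a replicate block, each replicate left out in turn, and each gene's probe sets averaged. The count at an unadjusted p under 0.05 without a fold threshold, the subset with a mean of at least 100, and the place of Ndufa4 were chosen after seeing the data.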

Additional observations from a re-analysis of the deposited data

How the results depend on the processing

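No call changed direction, and scaling and single arrays changed the counts. The members called lower numbered 0 under quantile normalization and 0 under 75th percentile scaling, against 4 as deposited, and the 2 called higher were Cox7a2l and Ndufa7 in each. Over all probe sets, 1504 were lower and 1266 higher after quantile normalization and 1326 lower and 1426 higher after scaling, against 2616 and 737 as deposited. The median of all 87 genes was -0.06 and 0.05 under these scalings. The medians of complexes I to V were -0.06, -0.09, -0.02, 0.07 and -0.13 after quantile normalization, and 0.06, 0.03, 0.11, 0.12 and -0.02 after scaling. The genes lower at an unadjusted p under 0.05 numbered 15 (17.2%, against 7.33% of all probe sets) and 4 (4.6%, against 6.1%) under these scalings. Without the intensity trend they numbered 13 of 87, against 10.7% of all probe sets. As deposited with the trend they numbered 32 (36.8%, against 11.6%). The cause was not tested. Only Cox7a2l was higher (1 gene) with a floor at the 25th percentile, with linear means, without the intensity trend and with each gene's probe sets averaged, and the first 3 of these dropped Ndufs8 while the last added Atp5if1 to the lower genes. With a floor at the 25th percentile 419 of all probe sets were higher, and with linear means 1625 were lower and 269 higher.

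Leaving out each array in turn gave 1 to 7 genes lower and 0 to 4 higher. At an unadjusted p under 0.05, 17 to 37 of the 87 genes were lower, against 6.27% to 21.3% of all probe sets. Without fasted replicate 1 only Ndufa4 was lower and 0 genes were higher, without fasted replicate 2 the lower genes were Cox7b, Ndufa4, Ndufs1, Ndufs3 and Ndufv1 and 0 were higher, without fasted replicate 3 the higher ones were Cox6c-ps1, Cox7a2l, Ndufa7 and Ndufb7, and without fed replicate 2 there were 7 lower. Without fed replicate 1 or fed replicate 3, Ndufs8 and Ndufa7 were not called. Over all probe sets these fits gave 1448 to 5562 lower and 472 to 1536 higher, the most without fasted replicate 3. The medians ranged from -0.20 to -0.16 for all 87 genes, -0.19 to -0.18 for complex I, -0.26 to -0.12 for complex II, -0.19 to -0.11 for complex III, -0.13 to -0.07 for complex IV and -0.28 to -0.27 for complex V. With the replicate number as a block, the same 4 genes were lower and the same 2 higher. Same-numbered arrays did not deviate together (r of 0.00, 0.011 and -0.053 over all probe sets). With 3 arrays a group this check cannot exclude that the isolates were handled in pairs. Of 684 values of 43 genes under 16 alternatives, 647 kept their side of the threshold, 29 fell short of it and 8 newly passed. The sign was opposite in 27, none of them called as deposited or under the alternative, 9 after quantile normalization, 14 after 75th percentile scaling and 4 under others. Dim values limit 5 genes, Cox6b2, Cox7a1, Cox7b2, Cox8b and Ndufaf1, which were below the floor on at least 1 array.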
